A study of Mus musculus with 6 samples.

Results

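Cytosolic and mitochondrial chaperones were followed in cultured aortic smooth muscle cells of FHL2-knockout and wild-type mice. The members were taken by name. They were the probes whose gene symbol begins with Hspa, Hspb, Hspd, Hspe, Hsph, Hsp90a, Dnaja, Dnajb or Dnajc, together with the probes for Hsf2 and Bag3. The rule also names Hsf1, which was not analysed here. Hspa5, Dnajb9, Dnajb11 and Dnajc3, which serve the endoplasmic reticulum (ER), were left out. The rule itself uses no measured difference between the genotypes, though it was set with earlier results of these data known. On the array 132 probes for 66 such genes were found among 45281 probes. Probes with a detection p-value under 0.05 on 3 or more of the 6 arrays were retained, which left 65 chaperone probes for 46 genes among 15527 probes of all kinds. The name of the group covers most but not all of them, because 5 of the 46 kept genes encode J-domain proteins of the ER (Dnajb12, Dnajc10, Dnajc16, Dnajc18 and Dnajc25) and the prefixes also take in Hspbp1 and Hspbap1, which bind chaperones without being chaperones of those families.

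Chaperones bind unfolded or unfinished proteins and use cycles of binding and release to let them fold. HSP70 proteins do this with ATP, J-domain proteins (the Dnaj genes) deliver the client and start ATP hydrolysis, and exchange factors such as HSP110 and BAG proteins open the cycle again. HSP90 finishes the folding of kinases and hormone receptors, small heat shock proteins hold damaged proteins and actin filaments without ATP, and the HSP60 and HSP10 ring folds proteins imported into mitochondria. Heat shock factors switch many of these genes on by binding repeats of the bases GAA and TTC in their promoters. In smooth muscle, small heat shock proteins are known for their link to actin and contraction, and BAG3 for the turnover of filamin in cells under tension.

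FHL2 is a LIM-domain protein of muscle and vascular cells that binds transcription factors, integrins and signalling proteins. The FHL2-knockout group was 3 culture batches of cells from C57Bl/6 mice lacking FHL2, and the wild-type group was 3 batches from C57Bl/6 mice. In both groups a batch pooled the cells of 3 aortas, so that each genotype stood for 9 mice, and confluent cells were kept without serum for 48 h before RNA was taken. Age, sex and passage are not stated in the labels, and the p-values below measure the spread between batches. Each batch was 1 single-colour Illumina array. Values are log2 intensities after background correction and quantile normalization of the 6 arrays, and each difference is knockout minus wild-type. A difference was called when its Benjamini-Hochberg adjusted p from limma, taken over all 15527 kept probes, was under 0.05.

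The knocked-out gene followed the labels. Fhl2 measured 6.70, 6.66 and 7.04 on the knockout arrays, against 11.23, 11.37 and 11.51 on the wild-type arrays (difference -4.57 ± 0.15 SE, adjusted p = 9.66e-07). Its second probe was not detected on any knockout array and was at least 8.12-fold lower there. Between 14844 and 16115 probes, and between 60 and 67 chaperone probes, were detected per array. Gapdh, a glycolytic gene often used for scaling, was called higher in knockout cells (0.83, adjusted p = 0.00129), and neither Actb (0.43, adjusted p = 0.0681) nor Rplp0 (0.18, adjusted p = 0.412) was called. Arrays scaled to a common median left the Gapdh difference at 0.81 with an adjusted p of 0.0964. The smooth muscle label of the cells came from the sample titles. Smooth muscle markers with a kept probe were Acta2, Tagln, Myh11, Smtn, Des, Lmod1 and Tpm2, while Cnn1, Myocd and Synpo2 had none. Myh11 was dim, detected on 2 knockout arrays and 1 wild-type array. Of these 7 smooth muscle markers Acta2, Lmod1 and Tpm2 were higher in knockout cells and 0 were lower, and their summed normalized intensity was 37098 to 41389 on knockout arrays, against 23281 to 29393 on wild-type arrays. Acta2 made up 90.7% to 91.2% of that sum on knockout arrays and 91.7% to 94.3% on wild-type arrays. The other 6 markers summed to 3391 to 3840 on knockout arrays, against 1670 to 2141 on wild-type arrays. Tpm2 was the brightest of these 6 on every array and made up most of their sum. It read 11.45, 11.25 and 11.23 on knockout arrays, against 9.91, 10.13 and 10.22 on wild-type arrays. Tagln, Myh11, Smtn and Des were not called. Of 7 endothelial markers 0 were higher and 6 lower, of 4 mesothelial and epithelial markers 4 were higher, of 9 fibroblast markers 4 were higher and 5 lower, and of 3 macrophage markers 1 was higher and 1 lower. The share called over all genes was 31.3%, and marker lists of 3 to 9 genes are too short to set against it. Msln and Upk1b among the mesothelial markers passed the filter through knockout cells alone. Clec3b among the fibroblast markers and the 6 lower endothelial markers passed it through wild-type cells alone. All of these had to differ. Krt8, Krt18, Krt19, Epcam and Lrrn4 of the mesothelial and epithelial list had no kept probe. In bulk RNA of this kind, fewer cells of a type and less RNA per cell cannot be told apart.

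As a group the chaperones were called about as often as all kept probes. Of the 65 kept probes 20 were called, a share of 30.8%, beside 29.6% of all kept probes. In knockout cells 13 probes (20%) were higher, beside 14.4% of all kept probes, and 7 (10.8%) were lower, beside 15.2%. The median difference of the members was 0.12, beside -0.001 over all kept probes, and their median absolute difference was 0.293, beside 0.294. The 3 knockout values lay wholly apart from the 3 wild-type values for 33 member probes (50.8%), beside 44.4% of all kept probes. Without knockout replicate 3, or without wild-type replicate 3, the number of lower members was 4. With arrays scaled to a common median instead of quantile normalized, 4 members were higher and 3 lower, and 11.4% of all kept probes were called. That fit gave every member probe the same SE, 0.329.

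Counted by gene, with each gene represented by its brightest probe, 8 of the 46 genes were higher in knockout cells, 7 were lower and 31 were not called. That is 32.6% of the genes, beside 31.3% of the 9051 genes with a kept probe. Differences past 2-fold were found for 5 genes. Hspb2, Dnajb13 and Hsp90aa1 rose by that much, and Hspa12b and Hsph1 fell. The spread within a genotype was small beside these, with a median SD of 0.147 on knockout arrays and 0.185 on wild-type arrays. Several probes were available for 16 genes, and for 5 of those the probes differed in their call. Uncalled members lay between -0.47 and 0.63.

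**Figure D1:**
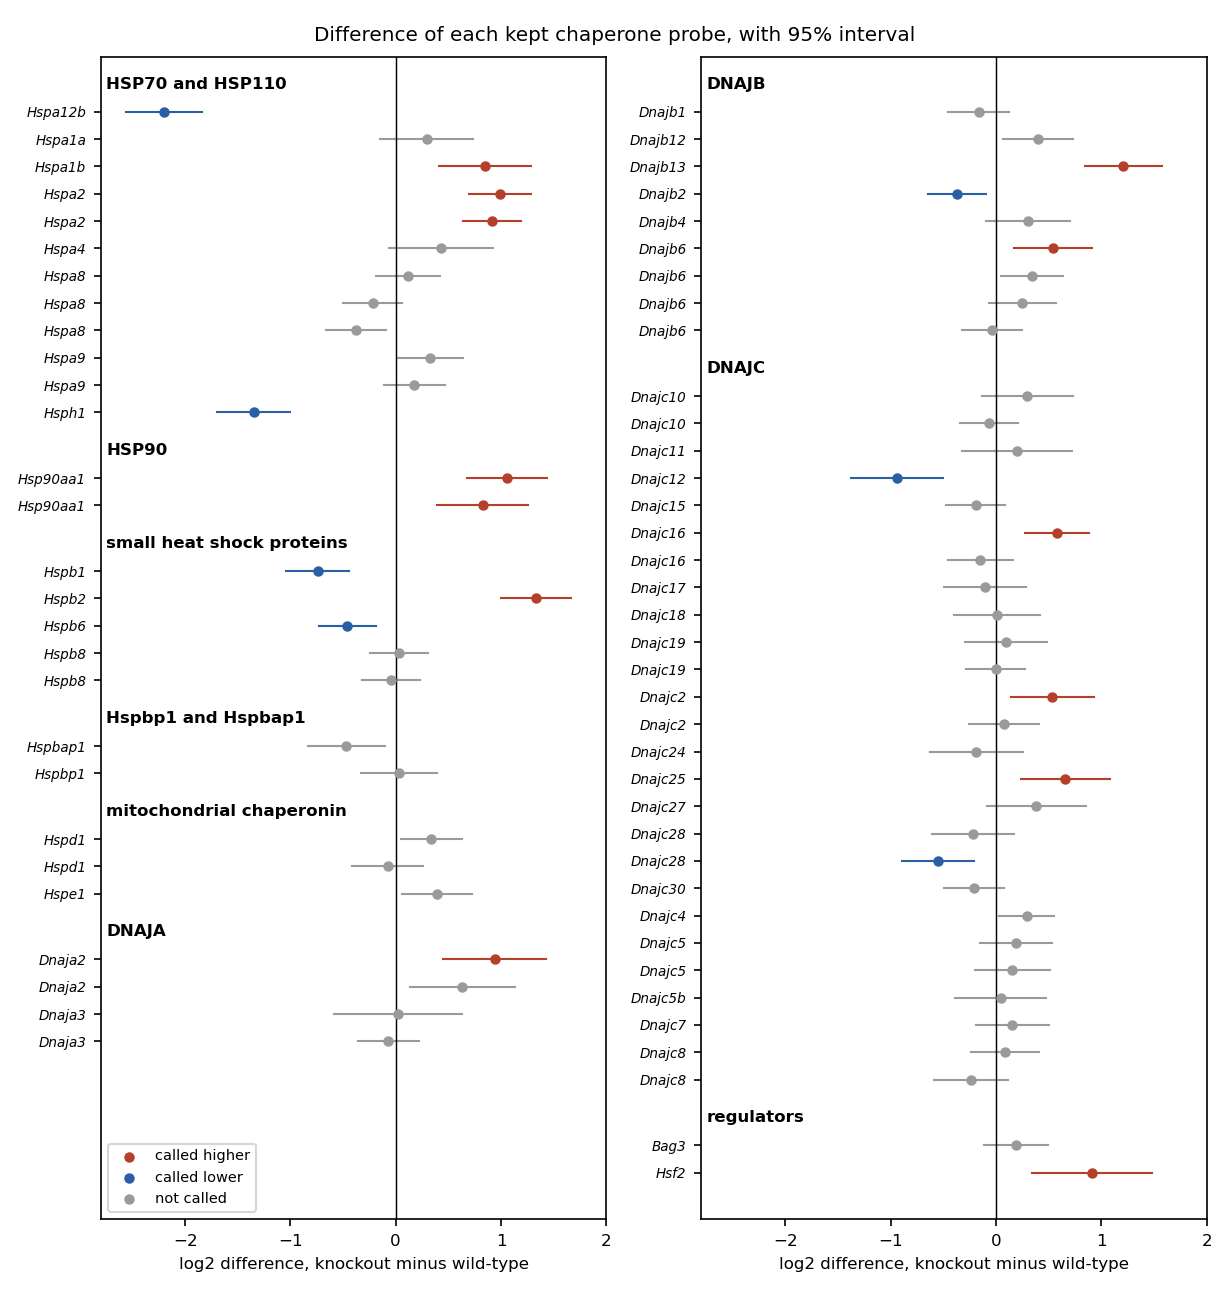
Each point is the log2 difference, knockout minus wild-type, of 1 kept chaperone probe, and each bar its 95% interval from limma; probes are grouped by class and coloured by call. Hspb2 at 1.33 and Hspa12b at -2.20 mark the ends, while most J-domain proteins lie close to 0.

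The HSP70 and HSP110 genes held calls in both directions. With 8 genes kept they are too few to set against the 31.3% of all genes called. By brightest probe 2 of the 8 kept genes were higher in knockout cells (Hspa2 and Hspa1b), 2 were lower (Hspa12b and Hsph1), and Hspa1a, Hspa4, Hspa8 and Hspa9 were not called. The widest gap of any member was that of Hspa12b, a distant HSP70 relative known mainly from endothelial cells. Its probe read 4.65, 4.42 and 4.76 on the knockout arrays, against 7.06, 6.69 and 6.67 on the wild-type arrays. All 3 knockout values were below detection and all 3 wild-type values were detected, so the difference is a bound: the level was at least 2.92-fold lower in knockout cells (fitted difference -2.20 ± 0.16 SE, adjusted p = 3.38e-05). It is also the only member that passed the detection filter through a single genotype, so it had to differ.

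Of 7 kept endothelial markers 6 were also lower in knockout cells, beside 31.3% of all genes called in either direction. Pecam1, Cdh5, Emcn, Egfl7, Esam and Icam2, which define endothelium, were detected on no knockout array. All 6 had passed the filter through wild-type cells alone, as Hspa12b had, so the filter set their shared direction. The summed normalized intensity of the 7 was 211 to 234 on knockout arrays, against 1641 to 2162 on wild-type arrays. The filter set the direction of that gap as well. On knockout arrays 6 of the 7 summed values were undetected, so the knockout sum is mostly background and the gap has no exact size. On the knockout arrays Kdr alone of the 7 was detected. Kdr was not called, and Tek, Tie1 and Vwf had no kept probe. The part of endothelial cells in the Hspa12b result was not tested.

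Hsph1 encodes HSP105, the HSP110 protein that exchanges the nucleotide of HSP70 and dissolves aggregates with it. It was read at 9.52, 9.41 and 9.80 on the knockout arrays, against 11.10, 10.77 and 10.91 on the wild-type arrays. No knockout array came within a log2 unit of the wild-type arrays except knockout 3, whose 9.80 lay closest to 10.77. Hsph1 was 2.55-fold lower in knockout cells (difference -1.35 ± 0.15 SE, adjusted p = 0.000358). Hspa4, the other HSP110 protein measured, was not called. It measured 7.50, 7.87 and 7.78 on knockout arrays, against 7.61, 7.43 and 6.82 on wild-type arrays, groups that overlap (0.43, 95% interval -0.07 to 0.93).

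Hspa2, an HSP70 known best for its need in male germ cells, was higher in knockout cells on both of its probes. The brighter probe gave 11.40, 11.36 and 11.30 on the knockout arrays, against 10.48, 10.31 and 10.53 on the wild-type arrays. The dimmer gave 8.84, 8.92 and 8.98 on the knockout arrays, against 7.75, 8.01 and 8.01 on the wild-type arrays. The groups lay well apart on both. Hspa2 was thus 1.89-fold higher by the first probe (0.92 ± 0.12 SE, adjusted p = 0.000823) and 1.99-fold higher by the second (0.99 ± 0.13 SE, adjusted p = 0.000753).

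The stress-inducible HSP70 genes Hspa1a and Hspa1b are neighbours on chromosome 17 and near-identical copies, so their probes may not tell them apart. Hspa1b measured 6.88, 6.27 and 6.67 on knockout arrays, against 5.87, 5.49 and 5.90 on wild-type arrays. Every knockout value was above every wild-type value, and the gene was 1.80-fold higher (0.85 ± 0.19 SE, adjusted p = 0.0115). With arrays scaled to a common median the Hspa1b call was lost (0.68, adjusted p = 0.203). A second Hspa1b probe missed the detection filter and was not tested. It averaged 5.16 on knockout arrays, against 5.15 on wild-type arrays. Hspa1a measured 6.19, 6.02 and 6.74 on knockout arrays, against 6.14, 5.89 and 6.05 on wild-type arrays. Knockout 1 and knockout 3 lay above the wild-type range and knockout 2 within it, and the gene was not called (0.29 ± 0.19 SE, adjusted p = 0.302). The difference between the neighbours was not tested.

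Hspa8 encodes HSC70, the HSP70 that cells make at all times. Its brightest probe read 13.46, 13.35 and 13.25 on knockout arrays, against 13.59, 13.63 and 13.50 on wild-type arrays. The knockout values sat just under the wild-type values, and the difference was not called (-0.22 ± 0.12 SE, adjusted p = 0.214). The other 2 Hspa8 probes gave -0.38 (adjusted p = 0.0508) and 0.12 (adjusted p = 0.561), so that the 3 probes did not share a direction. Mortalin, the mitochondrial HSP70 encoded by Hspa9, is described with the mitochondrial chaperones.

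HSP90 was represented by Hsp90aa1 alone, the stress-inducible cytosolic form, and it rose. Its brighter probe read 9.57, 9.64 and 9.52 on the knockout arrays, against 8.86, 8.42 and 8.28 on the wild-type arrays. The knockout values lay close together, while wild-type 1 stood above the other wild-type batches. Hsp90aa1 was 2.08-fold higher in knockout cells (1.06 ± 0.17 SE, adjusted p = 0.00204). A dimmer probe gave 6.14, 6.15 and 6.23 on knockout arrays, against 5.78, 5.08 and 5.19 on wild-type arrays, again without overlap (0.83 ± 0.19 SE, adjusted p = 0.0125). Hsp90ab1 was not analysed here.

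**Figure D2:**
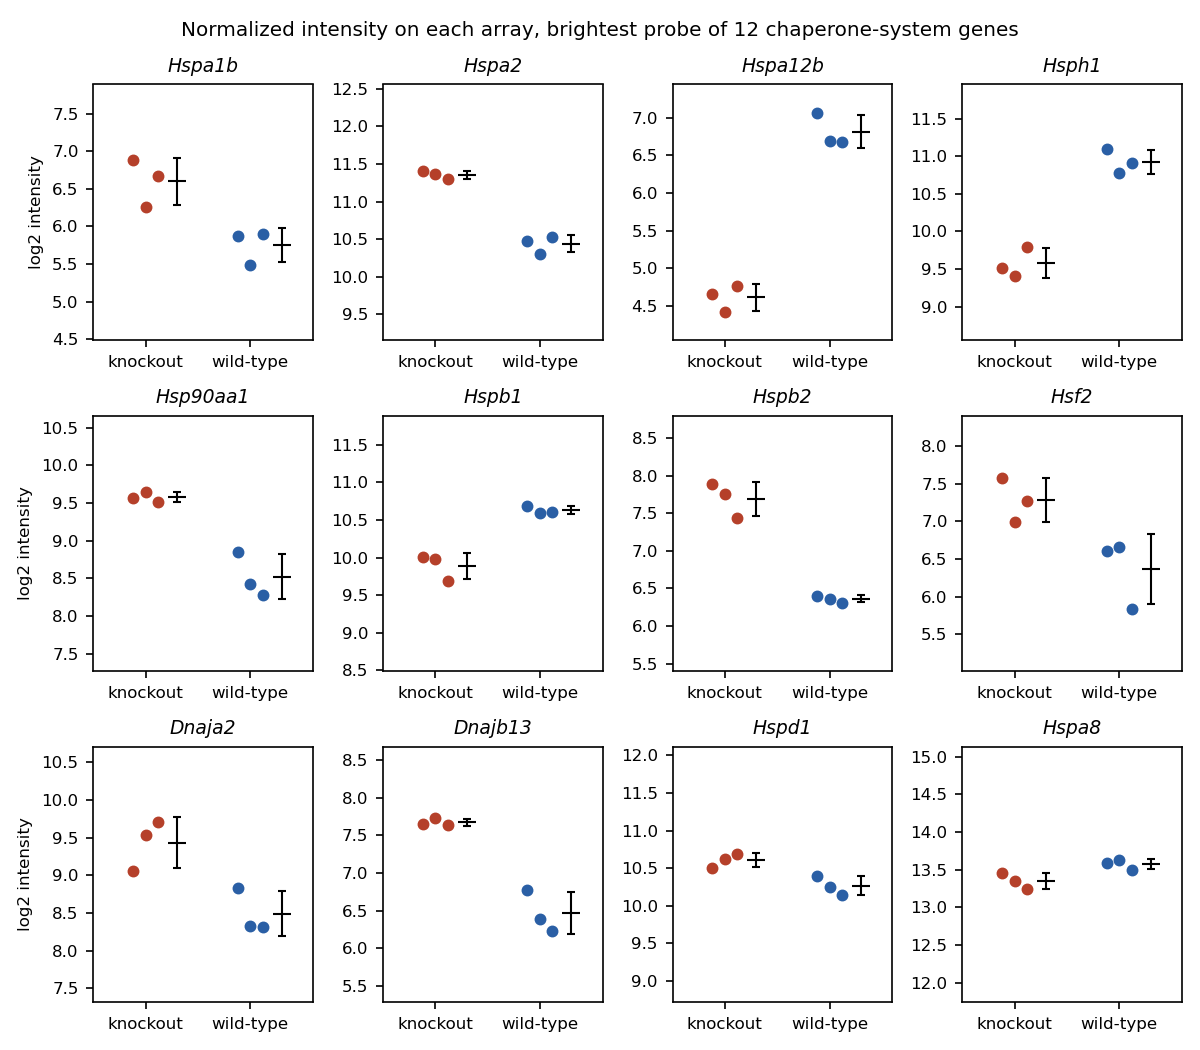
Log2 normalized intensity on each array for the member probes described most fully, with knockout points left of wild-type points in each panel; the black bars give mean ± SD over 3 arrays, and every panel spans the same number of log2 units. The Hsph1 knockout points lie between 9.41 and 9.80, all below the wild-type points, and the Hsp90aa1 knockout points lie between 9.52 and 9.64, all above theirs.

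Small heat shock proteins did not move as a block. Of the 4 genes kept, Hspb2 was higher in knockout cells, Hspb1 and Hspb6 were lower, and Hspb8 was not called. These 4 are too few to set against the 31.3% of all genes called. Hspb2, a muscle protein that binds myotonic dystrophy kinase, read 7.88, 7.75 and 7.44 on knockout arrays, against 6.41, 6.36 and 6.31 on wild-type arrays. The wild-type values lay close together, and each knockout batch lay more than a log2 unit above them. Hspb2 was 2.52-fold higher (1.33 ± 0.14 SE, adjusted p = 0.000306). Its neighbour on chromosome 9, Cryab, encodes the small heat shock protein αB-crystallin and was not called (0.16 ± 0.14 SE, adjusted p = 0.441). Whether the 2 neighbours differed from each other was not tested.

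Hspb1 encodes HSP25, the mouse form of HSP27, which caps and protects actin filaments. It read 10.01, 9.98 and 9.69 on knockout arrays, against 10.69, 10.60 and 10.61 on wild-type arrays. All knockout batches were below all wild-type batches, and Hspb1 was 1.67-fold lower (-0.74 ± 0.13 SE, adjusted p = 0.00381). Hspb6 encodes HSP20, whose phosphorylation accompanies smooth muscle relaxation. It read 10.49, 10.44 and 10.34 on knockout arrays, against 10.78, 10.93 and 10.93 on wild-type arrays (-0.46 ± 0.12 SE, adjusted p = 0.0213). The Hspb6 groups lay apart, but the call was lost without knockout replicate 2 (adjusted p = 0.0639), knockout replicate 3 (0.0741), wild-type replicate 2 (0.0677) or wild-type replicate 3 (0.0593).

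Hspb8, which works with BAG3 in chaperone-assisted autophagy, gave -0.04 (95% interval -0.32 to 0.23) and 0.03 (95% interval -0.24 to 0.31) on its probes. Bag3 itself read 11.90, 11.79 and 11.60 on knockout arrays, against 11.69, 11.57 and 11.46 on wild-type arrays. Those ranges overlap, and Bag3 was not called (0.19 ± 0.13 SE, adjusted p = 0.336). Of the partner proteins, Hspbp1, which strips nucleotide from HSP70, gave 0.03 (95% interval -0.33 to 0.39). Hspbap1, which binds small heat shock protein, gave -0.47 and missed the threshold with an adjusted p of 0.0583. Its groups did not overlap, and without wild-type replicate 2 it was called lower (-0.61, adjusted p = 0.0286).

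Of 9 mitochondrial chaperone genes kept, 0 were higher and 1 was lower in knockout cells by brightest probe, with a median difference of -0.004. Of all genes 31.3% were called, and 9 genes are too few to set against that share. Hspe1, the HSP10 lid of the ring, read 9.19, 9.27 and 9.40 on knockout arrays, against 9.09, 8.91 and 8.67 on wild-type arrays. Hspd1, the HSP60 ring itself, read 10.51, 10.62 and 10.69 on knockout arrays, against 10.40, 10.25 and 10.15 on wild-type arrays. Both sat above their wild-type values on every array, and neither was called (Hspe1 0.40 ± 0.14 SE, adjusted p = 0.0739, and Hspd1 0.34 ± 0.13 SE, adjusted p = 0.0777). A dimmer Hspd1 probe gave -0.07, and Hspe1 was called without wild-type replicate 1 (0.50, adjusted p = 0.0407).

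Hspa9, the mitochondrial HSP70 that pulls proteins in and folds them, read 12.03, 11.94 and 12.03 on knockout arrays, against 11.71, 11.76 and 11.99 on wild-type arrays by its brightest probe. The groups overlapped through wild-type 3, and the difference was 0.18 (adjusted p = 0.337), with 0.33 (adjusted p = 0.11) on the other probe. Its J-domain partners were not called either. Dnaja3, the mitochondrial partner also called TID1, gave -0.07 (95% interval -0.36 to 0.22), and Dnajc19 and Dnajc15, which sit at the import motor of the inner membrane, gave -0.004 and -0.19. Dnajc11, found at the contact sites of the membranes, gave 0.20, and Dnajc30 gave -0.21. The called gene was Dnajc28 (-0.55 ± 0.15 SE, adjusted p = 0.0237). It read 5.95, 6.25 and 6.12 on knockout arrays, against 6.74, 6.44 and 6.80 on wild-type arrays. Its dimmer probe gave -0.22 and was not called, and the brighter probe lost its call without knockout replicate 1 (adjusted p = 0.0757), knockout replicate 3 (0.0594), wild-type replicate 1 (0.0626) or wild-type replicate 3 (0.075).

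Among the J-domain proteins that start the HSP70 cycle in the cytosol, Dnaja2 was higher in knockout cells and Dnajb1 was not called. Dnaja2, a type A partner used for refolding, read 9.06, 9.53 and 9.71 on knockout arrays, against 8.84, 8.32 and 8.31 on wild-type arrays. Knockout 1 and wild-type 1 came closest to each other, and the groups did not overlap (0.94 ± 0.21 SE, 1.92-fold, adjusted p = 0.0118). The dimmer Dnaja2 probe gave 0.63 and missed the threshold (adjusted p = 0.0583), though it passed without wild-type replicate 1 (0.77, adjusted p = 0.0499). Dnajb1, the classical HSP40 that heat induces with HSP70, read 11.12, 11.26 and 11.41 on knockout arrays, against 11.35, 11.48 and 11.47 on wild-type arrays. Those ranges overlap (-0.17 ± 0.13 SE, adjusted p = 0.376). Both probes for Dnaja1, another type A gene, were detected on 0 of the 6 arrays.

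Of the 6 DNAJB genes kept, Dnajb13 rose and Dnajb2 fell. These 6 are too few to set against the 31.3% of all genes called. Dnajb13 belongs to the radial spokes of cilia and sperm tails. It read 7.65, 7.73 and 7.64 on knockout arrays, against 6.77, 6.39 and 6.23 on wild-type arrays. The gap between the groups was wide, and Dnajb13 was 2.31-fold higher in knockout cells (1.21 ± 0.16 SE, adjusted p = 0.000818). Dnajb2, which hands clients to the proteasome and is best known from neurons, read 9.95, 10.06 and 10.17 on knockout arrays, against 10.50, 10.39 and 10.41 on wild-type arrays. Its difference was small (-0.37 ± 0.12 SE, adjusted p = 0.0478), and leaving out any 1 of the 6 arrays ended the call, with adjusted p between 0.0647 and 0.141. Dnajb4 (0.30), an HSP40 close to Dnajb1, and Dnajb12 (0.40), which sits in the ER membrane, were not called.

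Dnajb6, which keeps polyglutamine proteins from aggregating, had 4 kept probes and no single answer. Its brightest gave -0.04, others gave 0.25 and 0.34, and a dim probe was called higher (0.54 ± 0.16 SE, adjusted p = 0.0366). That dim probe read 5.58, 5.92 and 5.50 on knockout arrays, against 5.13, 4.94 and 5.32 on wild-type arrays, where it was detected on 1 array. Its call was lost without knockout replicate 1 (adjusted p = 0.0615), knockout replicate 2 (0.122), wild-type replicate 1 (0.0786) or wild-type replicate 2 (0.116).

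The DNAJC genes encode proteins that share little beyond the J domain. Of 19 genes kept, 1 was higher, 2 were lower and 16 were not called by brightest probe, with a median of -0.004, where 31.3% of all genes were called. Dnajc12, a partner of the enzymes that hydroxylate aromatic amino acids, read 4.54, 4.80 and 5.27 on knockout arrays, against 5.80, 5.70 and 5.93 on wild-type arrays. It was detected on 1 knockout array and on all 3 wild-type arrays, and the groups did not overlap (-0.94 ± 0.19 SE, 1.92-fold lower, adjusted p = 0.00711). Dnajc28 was the other lower gene. The higher gene was Dnajc25, taken here as an ER protein, which read 6.36, 6.35 and 5.78 on knockout arrays, against 5.49, 5.66 and 5.37 on wild-type arrays. Knockout 3 lay close to wild-type 2 (0.66 ± 0.18 SE, adjusted p = 0.0284), and the call was lost without knockout replicate 1 (adjusted p = 0.0855), knockout replicate 2 (0.093), wild-type replicate 1 (0.071) or wild-type replicate 3 (0.0901).

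Further DNAJC genes had probes at odds. Dnajc16, an ER membrane protein, gave -0.15 on its brighter probe and 0.58 on the dimmer (adjusted p = 0.0124), for which the knockout arrays read 7.35, 7.52 and 7.57 and the wild-type arrays 7.06, 6.86 and 6.78. Dnajc2, known as zuotin and bound to ribosomes, gave 0.07 on its brighter probe and 0.53 on a dim one (adjusted p = 0.0488). The dim Dnajc2 call was lost on leaving out any of 5 arrays, with adjusted p between 0.0714 and 0.144, and held without wild-type replicate 3. The uncalled DNAJC probes lay between -0.24 and 0.38. They covered Dnajc5, the cysteine string protein of secretory vesicles, its relative Dnajc5b, Dnajc7, a partner of both HSP70 and HSP90, and Dnajc10, the disulfide reductase of the ER. Dnajc8 and Dnajc17, tied to splicing, Dnajc24, which acts in diphthamide synthesis, Dnajc27, which joins a J domain to a Rab-like GTPase, and Dnajc4 and Dnajc18 were also among them. Dnajc27 was the highest of these by its brightest probe (0.38, 95% interval -0.09 to 0.85).

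Of the heat shock factors Hsf2 was measured. Hsf2, a factor of development and of sustained stress that can pair with HSF1, read 7.58, 6.99 and 7.27 on knockout arrays, against 6.60, 6.67 and 5.84 on wild-type arrays. The groups did not overlap, though knockout 2 lay near wild-type 2, and the gene was 1.88-fold higher in knockout cells (0.91 ± 0.25 SE, adjusted p = 0.0252). Its call was lost without knockout replicate 1 (adjusted p = 0.0742), knockout replicate 3 (0.0592) or wild-type replicate 3 (0.65, adjusted p = 0.0518).

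Promoters were searched for the heat shock element because heat shock factors act through it. RefSeq windows on GRCm38.p6, from 250 bases before to 50 bases after each start, were on hand for 35 of the 46 kept genes. A 2-unit element was written as GAANNTTC or TTCNNGAA, where N is any base; each reads the same on both strands. A 3-unit element was 3 alternating units of GAA and TTC with 2 bases between them, on either strand, and holds both 2-unit forms. The 3-unit letters were present for 4 of the 35 genes (11.4%), beside 179 of 27025 genes in the table (0.662%). The 2-unit letters were present for 13 of the 35 (37.1%), beside 4587 genes (17.0%). The 4 genes with the longer match were Hsph1, Hspd1, Hspe1 and Dnajb6, of which by brightest probe Hsph1 fell in knockout cells and the others were not called. Such a match is a description of the letters and not a site.

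Sequence upstream of the start is shown for genes with a match that fell (Hsph1 with a 3-unit match and Hspb1 with several 2-unit matches), rose (Hspa1b) or gave probes at odds (Dnajb6). Hspb6, which also fell, had 1 match, starting 120 bases before its start, and is not shown. Each window is the 150 bases before the start, 5′ to 3′ on the gene's strand, with the matches in capitals. They lie at chr5:149636337-149636486 on the minus strand (Hsph1), chr5:135887769-135887918 on the plus strand (Hspb1), chr17:34959239-34959388 on the minus strand (Hspa1b) and chr5:29735748-29735897 on the plus strand (Dnajb6).
Hsph1: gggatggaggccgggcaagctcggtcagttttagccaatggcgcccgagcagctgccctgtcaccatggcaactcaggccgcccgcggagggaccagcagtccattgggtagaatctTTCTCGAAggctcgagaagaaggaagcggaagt
Hspb1: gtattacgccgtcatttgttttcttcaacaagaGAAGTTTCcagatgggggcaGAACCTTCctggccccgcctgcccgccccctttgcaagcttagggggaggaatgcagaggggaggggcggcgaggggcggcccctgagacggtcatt
Hspa1b: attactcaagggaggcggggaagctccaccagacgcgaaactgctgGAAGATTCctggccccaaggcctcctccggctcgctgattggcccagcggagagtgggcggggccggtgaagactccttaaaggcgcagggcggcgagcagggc
Dnajb6: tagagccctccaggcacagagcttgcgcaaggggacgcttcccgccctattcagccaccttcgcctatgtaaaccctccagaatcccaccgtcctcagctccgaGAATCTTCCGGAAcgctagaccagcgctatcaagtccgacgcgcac

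The 3-unit match of Hsph1, TTCTGGAAAGTTC, lay after this start, at bases 37 to 49 (chr5:149636288-149636300). Hspb1 held 2-unit matches at 2 places, starting 117 and 97 bases before its start. Hspa1b held 1, starting 104 bases before its start, and Hspa1a held 1 at the same distance in a window identical at 296 of 300 bases. Hspd1 and Hspe1 are transcribed away from each other on chromosome 1, and the same stretch gave the match for both. It is shown from the Hspe1 side, bases 95 to 66 before that start (chr1:55088053-55088082, plus strand), with overlapping 3-unit matches in capitals.
Hspe1: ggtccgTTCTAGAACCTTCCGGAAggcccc

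**Figure D3:**
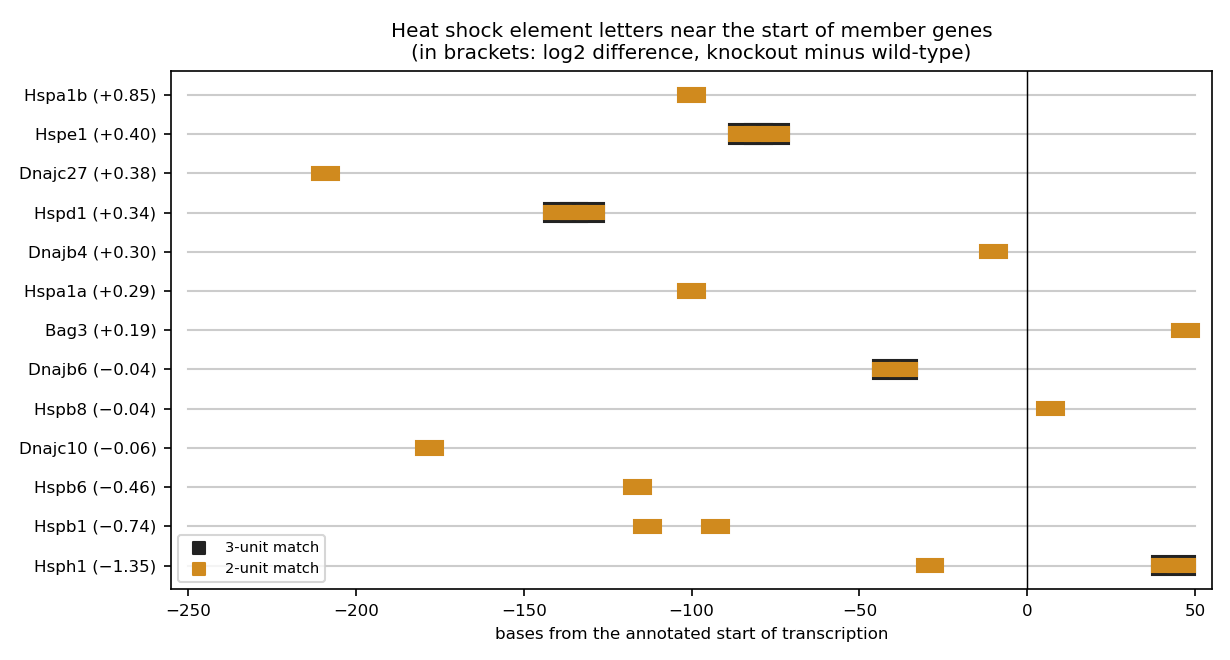
Matches to the heat shock element in the RefSeq windows of kept chaperone genes, by distance from the start in bases; marks with dark edges are 3-unit and plain marks 2-unit matches, and the gene's log2 difference by brightest probe stands by its name. Where a gene has several starts, the outermost with a match is drawn. Genes with a match include called higher (Hspa1b), called lower (Hsph1, Hspb1, Hspb6) and uncalled genes.

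Other genes of the folding machinery, and stress-induced genes outside it, were taken from lists and counted by brightest probe. Of 52 folding genes with a kept probe 6 were higher in knockout cells, 3 were lower and 43 were not called, a share of 17.3%, beside 31.3% of all genes, with a median difference of 0.04. With the 7 other stress-induced genes the share was 16.9% of 59. In the TRiC/CCT chaperonin, the ring that folds actin and tubulin, 1 of 7 subunits was higher (Cct5 0.88, adjusted p = 0.00801) and 1 lower (Cct6b -1.05, adjusted p = 0.00406), while Tcp1 (0.35) and Cct3 (0.21) were not called. The Cct5 and Cct6b probes were the dimmest of the 7, and Cct6b was detected on 1 knockout array. Prefoldin, which hands actin and tubulin to that ring, had 1 of 5 subunits lower (Pfdn5 -0.54, adjusted p = 0.0248) and none higher. The Pfdn5 call was lost without knockout replicate 1 (adjusted p = 0.0721), knockout replicate 2 (0.0729) or wild-type replicate 3 (0.0619). Of 14 HSP90 cochaperones 1 was lower, the cyclophilin Ppid (-0.43, adjusted p = 0.0351), and Sugt1 (0.76), Ptges3 (0.48) and Ahsa1 (-0.22) were not called. Dimmer probes of the ubiquitin ligase Stub1 (-0.58, adjusted p = 0.00979) and the phosphatase Ppp5c (0.41, adjusted p = 0.0438) were called where their brighter probes were not. The Ppid call was lost on leaving out any 1 array, with adjusted p between 0.0577 and 0.112. Sugt1, detected on 1 wild-type array, was called without wild-type replicate 1 (1.15, adjusted p = 0.0423).

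The 6 exchange factors and BAG proteins held no call, with Bag4 (-0.38, adjusted p = 0.0603) and Bag1 (0.32, adjusted p = 0.0731) nearest to one. The 10 mitochondrial folding and proteolysis genes held none by brightest probe either, with Clpx (-0.25), Hscb (-0.37) and Trap1 (-0.29) at the smallest p. Dimmer probes of Clpx (-0.72, adjusted p = 0.0323) and Clpb (at least 1.11-fold lower and detected on no knockout array, adjusted p = 0.0164) were called lower. Among ER chaperones 5 of 10 were higher in knockout cells and 0 were lower, with a median of 0.40. The share called over all genes was 31.3%, and 10 genes are too few to set against it. Of the 5 ER genes kept by the name rule 1 was higher and 0 were lower, with a median of 0.008. Hspa5, the HSP70 of the ER, gave 0.84 (adjusted p = 0.0119), the lectin chaperone Calr 0.80 (adjusted p = 0.0028), and the J-domain protein Dnajc3 0.53 (adjusted p = 0.0132). Pdia6, a disulfide isomerase, gave 1.11 (adjusted p = 0.000219) on its brighter probe and -0.07 on another, and Hsp90b1, the HSP90 of the ER, gave 0.42 (adjusted p = 0.0437). The Hspa5 probe was dim, at 5.68, 5.95 and 5.54 on wild-type arrays, where the lowest detected values were 5.24, 5.32 and 5.18. The Dnajc3 call was lost without knockout replicate 2 (adjusted p = 0.0504). The Hsp90b1 call was lost without any of 5 arrays, with adjusted p between 0.0866 and 0.122, and held without wild-type replicate 2. With arrays scaled to a common median Pdia6 alone of the 5 was called. The differences of the others were then 0.75 (Hspa5), 0.73 (Calr), 0.48 (Dnajc3) and 0.455 (Hsp90b1), each with an SE of 0.329.

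Among 7 other genes known to respond to heat or oxidative stress, Serpinh1, the collagen chaperone HSP47, was higher (0.62, adjusted p = 0.0177). That call was lost without wild-type replicate 2 (adjusted p = 0.0561) or wild-type replicate 3 (0.0533). Hmox1, the haem-degrading enzyme, gave -0.62 (adjusted p = 0.156) and was called lower without wild-type replicate 1 (-0.98, adjusted p = 0.00754). Sqstm1 (-0.24), the autophagy receptor, and the metallothionein Mt2 (0.25) were not called.

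**Figure D4:**
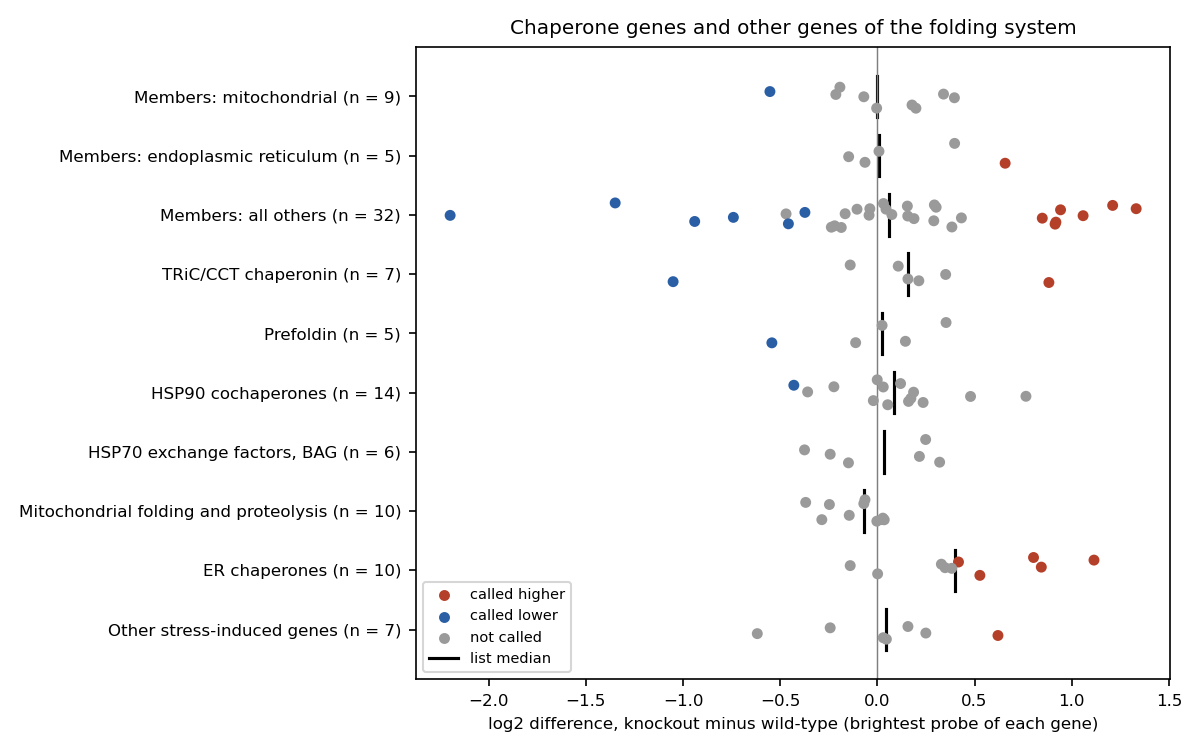
Log2 difference, knockout minus wild-type, of each gene by its brightest kept probe, with the chaperones by compartment in the upper 3 rows and the related lists below, coloured by call, with a bar at each median. The ER chaperones have their median at 0.40 with 5 of 10 genes called higher, where 31.3% of all genes were called. The other related lists have medians between -0.07 and 0.16.

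Members around the detection filter are given without a test. Just inside it, with 3 detected arrays, stood Hspa12b and a dim Dnaja3 probe (0.03). Just outside, with 2, stood Dnajb3 (-0.17), a second Dnajb4 probe (-0.16), Dnajc1 (0.31), Dnajc6 (0.79) and a second Hspa1b probe (0.01). In all, 59 member probes were detected on no array and 53 on all 6. The 20 genes with no kept probe were Dnaja1, Dnajb3, Dnajb5, Dnajb7, Dnajb8, Dnajb14, Dnajc1, Dnajc5g, Dnajc6, Dnajc9, Dnajc14, Hspa1l, Hspa4l, Hspa12a, Hspa13, Hspa14, Hspb3, Hspb7, Hspb9 and Hspb11. Their probes were not well above background on 3 arrays, and no difference was fitted for these genes.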

How the data were processed

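RNA of 6 cultures, 3 of FHL2-knockout and 3 of wild-type aortic smooth muscle cells, was measured on Illumina beadchips. The authors deposited 1 intensity per probe and array, which its values show to be neither background-subtracted nor scaled, and beside it, per the file headers, a detection p-value, which takes 936 equal steps. The authors also deposited a matrix of log2 values, used as an alternative; how it was corrected and its offset are not given in the sources used here. It correlated at 0.999 or more with each array. Per the submitters' processing notes, GenomeStudio 2011.1, R 2.14.0 and limma 3.10.2 were used, with no roles stated.

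Intensities were normalized with neqc (normexp background from the detection p-values, offset 16, quantile normalization, log2) in R 4.3.3 with limma 3.58.1. The offset shrinks differences of dim probes, and quantile normalization assumes like intensity distributions in both genotypes. Median raw intensity ran from 116.4 to 171.9 per array; with 3 arrays per group, their number limits precision. Probes detected at p under 0.05 on at least 3 arrays were tested with lmFit and eBayes on genotype, with Benjamini-Hochberg adjustment over all 15527; calls have adjusted p under 0.05. Symbols came from the platform annotation; 2150 kept probes have no single symbol and stay unnamed. A gene undetected throughout a group has a bound, its bright group's mean over the lowest detected signal. The code was tested on simulated data. Alternatives covered the background, scaling, offset, source, detection filter, variance model, array weights, fold minimum, a replicate block and leaving out each array. Every kept member gene is named; every array's value is given for called probes at or past 0.8 and for a fixed set of heat shock genes, and of each related list the 4 with the smallest p at most, plus genes that were called. Members and lists were chosen with earlier results of these data known.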

Additional observations from a re-analysis of the deposited data

How the results depend on the processing

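Over 18 alternatives no chaperone call reversed, and 7 of the 20 called probes kept their call under each one that gave them a value: Dnajb13, Dnajc12, Hsph1, Hspa12b, Hspb2 and the brighter probes of Hsp90aa1 and Hspa2. Dnajc2, Dnajb2 and the dim Dnajb6 probe lost it under most. Of 45 uncalled probes 9 were called under at least 1 alternative and 13 changed sign under at least 1.

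Scaling arrays to a common median gave 4 higher and 3 lower members, 2 related genes called and a member median of 0.049. The median of all kept probes was then -0.074, and 38.8% of all calls were higher in knockout cells, beside 48.6% with quantile normalization. Without background correction 17 related genes were called and the member median was 0.064. It was 0.136 at detection p under 0.01, 0.044 over all 132 probes with no filter, and 0.14 with array weights. A fold minimum of 1.5 left 4 lower members and 6 related genes. With median scaling the fit gave every member probe the same SE, 0.329. For Hspb1 the SE was 0.132 with quantile normalization, and its difference was -0.74, beside -0.79 with median scaling. The causes were not tested. Leaving out 1 array gave 9 to 12 higher members, 4 to 6 lower members, 6 to 10 related genes and medians of 0.104 to 0.165; the 6 related genes came without knockout replicate 2 or wild-type replicate 3. All probes called without any filter came to 3832, beside 4596 with it, and to 1767 with median scaling.

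Arrays of the same replicate number deviated together with correlations of 0.118, 0.073 and 0.064. Between different numbers the correlations were all lower, from -0.074 to 0.009. Whether the numbers mark shared batches was not tested, and they were not taken as pairs in the main fit. With the replicate number as a block 11 members were higher and 7 lower, 8 related genes were called and the median was 0.117; Dnajb2, Dnajc2 and the dim Dnajb6 probe lost their call, as did the related genes Ppid (adjusted p = 0.0567) and Hsp90b1 (0.0591), and Hspbap1 gained one. Fhl2 was lower throughout, between -4.69 and -3.54. Signal over background limits Hspa12b, which was detected on no knockout array, and Dnajc12 and the related gene Cct6b, each detected on 1.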
